A study of Mus musculus with 24 samples.

Results

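Integrins are the receptors by which cells hold on to the extracellular matrix, each a pair of 1 alpha and 1 beta subunit, and laminins are the basement membrane proteins, each built of an alpha, a beta and a gamma chain, on which epithelia rest. In basal cells of stratified epithelia and of the urothelium, integrin alpha6beta4 binds a laminin that holds the Lama3 and Lamb3 products, and anchors keratin filaments to the basement membrane through the hemidesmosome. Other integrins read collagens, proteins with the RGD tripeptide such as fibronectin, or counter-receptors on other cells, and a few are made mainly by leukocytes. The genes described here were every protein-coding gene named as an integrin alpha or beta subunit or as a laminin alpha, beta or gamma chain, chosen by symbol and not by level. This gave 38 genes, 18 alpha subunits, 9 beta subunits and 11 laminin chains, of the 53465 genes measured, and all 38 entered the counts.

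The data were RNA-seq of 24 mouse tumors, 3 from each of 8 BURP lines. Each line was started from 1 bladder tumor of a C57BL/6NTac mouse given 0.1% BBN, a bladder carcinogen, in the drinking water from 8 weeks of age for at most 36 weeks, and was kept by subcutaneous passage in untreated hosts of the same strain and sex. The study classes BURP-12BaSq, BURP-17BaSq and BURP-18BaSq (male) and, among females, BURP-21BaSq, BURP-24BaSq and BURP-25BaSq as basal/squamous (Ba/Sq), BURP-16SR (male) as stroma-rich (SR) and BURP-19NE (male) as neuroendocrine-like (NE). The class of BURP-16SR is mixed in the study. There 1 of its 3 tumors correlated highly with the NE-like class, and the line is also summed up as stroma-rich/NE-like. BURP-16SR and BURP-19NE are 1 line each, and 1 donor stands behind each line's 3 tumors. The tests treat tumors as independent, so their p-values do not speak for donors in general. In the comparisons with the Ba/Sq tumors and between the sexes, the spread behind them mixes that within lines with that between Ba/Sq donors. Between BURP-16SR and BURP-19NE, and among the Ba/Sq lines, it is only the spread between tumors of a line. The tumors are bulk tissue with host cells in them, in which fewer cells of a type and less RNA per cell cannot be told apart.

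Totals per tumor lay between 9295708 and 25370320 estimated counts, which puts 3 counts, taken as the smallest level a library can show, at 0.106 to 1.34 CPM (library-scaled counts, after TMM normalization), for counting error only. Epithelial marker genes summed to 6200 to 12200 CPM in the Ba/Sq tumors, 141 to 213 CPM in BURP-19NE and 212 to 489 CPM in BURP-16SR. The basal keratins Krt5 and Krt14 were the highest of these markers in every Ba/Sq tumor, so the sums follow them most. Of 7 neuroendocrine markers, 2 were higher in BURP-19NE than in the Ba/Sq tumors, Ncam1 among them (log2 fold change 2.96), while 5 had means under 1 CPM there. Tumor C102-M1 of BURP-25BaSq lay at an MDS distance of 2.85 from the BURP-21BaSq tumors and of 5.57 from the other tumors of its own label, and in C102-M30 of the same line 1 noncoding RNA took 61.9% of the counts. Both were kept as labelled, and results that change without them are given with both values.

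The promoter sequences of 4 of these genes, each with a large difference described further on, are shown to give their place in the genome. They are the bases that precede the RefSeq start of the gene in GRCm38, written 5′ to 3′ on the gene's strand, without bases that GENCODE places in an exon. Capitals mark GC boxes (GGGCGG on either strand) and E-boxes (CANNTG). Lamb3 is shown at chr1:193301744-193301992 (plus strand), from a RefSeq start that lies 94295 bases inside the longer GENCODE gene. Itgb6 is at chr2:60722644-60722853 (minus strand), Lamb1 at chr12:31265043-31265233 (plus strand) and Itgb7 at chr15:102231945-102232185 (minus strand).
Lamb3: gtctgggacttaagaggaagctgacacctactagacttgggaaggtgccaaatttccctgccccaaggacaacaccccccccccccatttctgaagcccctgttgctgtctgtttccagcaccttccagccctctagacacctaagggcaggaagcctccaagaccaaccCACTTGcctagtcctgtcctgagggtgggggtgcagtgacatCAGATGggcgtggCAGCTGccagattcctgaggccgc
Itgb6: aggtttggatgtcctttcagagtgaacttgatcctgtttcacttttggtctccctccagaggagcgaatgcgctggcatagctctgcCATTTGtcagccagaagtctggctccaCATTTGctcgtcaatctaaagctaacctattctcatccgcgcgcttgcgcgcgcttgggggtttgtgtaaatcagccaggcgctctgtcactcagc
Lamb1: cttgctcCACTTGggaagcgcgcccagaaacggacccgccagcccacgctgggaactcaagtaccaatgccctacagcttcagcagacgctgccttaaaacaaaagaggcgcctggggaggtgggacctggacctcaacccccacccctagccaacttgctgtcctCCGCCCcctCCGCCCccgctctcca
Itgb7: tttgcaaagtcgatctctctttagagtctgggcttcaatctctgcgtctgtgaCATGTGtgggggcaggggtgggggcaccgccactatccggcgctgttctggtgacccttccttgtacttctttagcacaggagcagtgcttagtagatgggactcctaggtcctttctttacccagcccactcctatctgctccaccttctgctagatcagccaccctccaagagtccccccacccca
Lamb1 held 2 GC boxes in its window, and the windows of Lamb3, Itgb6 and Itgb7 held none. E-boxes numbered 3 in the windows of Lamb3 and Itgb6, 2 in that of Lamb1 and 1 in that of Itgb7, of which the shortened stretches show 3, 2, 1 and 1. Over 24 of the 38 genes with a promoter in the RefSeq table, 33.3% held a GC box and 79.2% an E-box, against 32.7% and 66.2% of all 32851 windows of 250 bases. These matches are a description of letters.

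Most of the family was detected throughout. Of the 38 genes, 29 had a mean of at least 1 CPM in all 8 lines, 28 when C102-M1 was left out. Itgad and Itgb2l, which encode leukocyte subunits, stayed at or below 0.283 CPM in every Ba/Sq and BURP-19NE tumor and at or below 0.232 CPM in BURP-16SR. Comparisons between genes used CPM per kb of exon. On that scale Itgb4 and Itgb1, the beta subunits of the hemidesmosome and of most other matrix receptors, led the Ba/Sq tumors at 127 ± 57.3 and 122 ± 34.8 CPM per kb (mean ± SD, n = 18), ahead of Itga6 at 95.3 ± 57.8 and Itga3 at 56.4 ± 33.5, and the differences between Itgb4, Itgb1 and Itga6 were smaller than the SD. BURP-19NE was led by Itgb1 at 133 ± 13.4, Lamb1 at 98.7 ± 19.8 and Itga6 at 52.7 ± 5.17 CPM per kb (n = 3). In BURP-16SR the order was Itgb1 at 207 ± 67.9, then Itga5, the fibronectin receptor alpha subunit, at 34.7 ± 1.58, with Lamc1 at 31.9 ± 4.31 and Itgb7 at 31.8 ± 5.38 CPM per kb (n = 3). The last 3 of these did not differ beyond their spread.

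**Figure D1:**
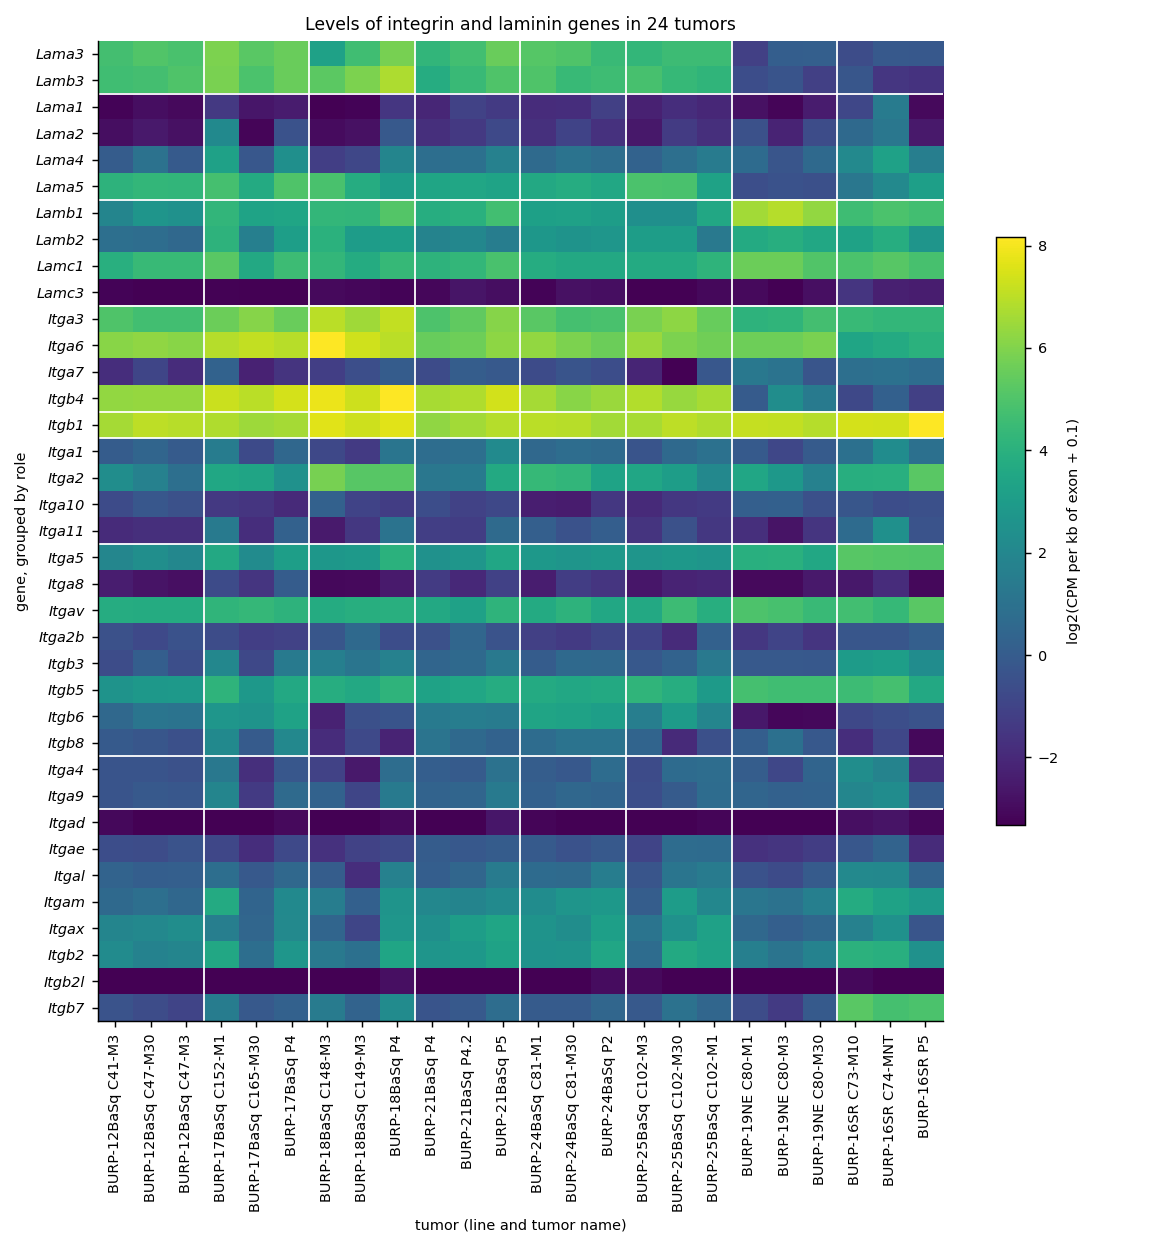
Levels of the genes described (rows, grouped by role) in the 24 tumors (columns, grouped by line), as color on a log2 scale of CPM per kb of exon. Lama3, Lamb3 and Itgb4 are high in the 18 Ba/Sq columns and low in the 6 columns of BURP-19NE and BURP-16SR, and Itgb7 is high in the 3 BURP-16SR columns.

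The make-up of the laminin chains differed as well, when each kind was summed per length. In the Ba/Sq tumors the alpha and beta sums lay within 1 SD of each other, at 52.2 ± 17.7 and 54.8 ± 31.0 CPM per kb (n = 18). BURP-19NE had 3.08 ± 0.617 for the 5 alpha chains together, against 112 ± 21.4 for the beta chains (n = 3), and 87.8% ± 0.877 of its beta sum was Lamb1, a chain shared by many laminins. BURP-16SR stood at 13.6 ± 5.36 and 37.1 ± 6.5 CPM per kb (n = 3). Of its alpha sum, Lama3 was 5.54% ± 1.08 and Lama4, a chain of vessel and mesenchymal laminins, 39.9% ± 14.3, while in the Ba/Sq tumors Lama3 was 60.2% ± 13.9 and Lama4 3.94% ± 2.29. Lama5 made up 38.9% ± 26.6 of the BURP-16SR alpha sum, and Lama4 38.8% ± 9.51 of that of BURP-19NE. These sums describe the levels and were given no test.

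BURP-19NE was first compared with the 18 Ba/Sq tumors to ask which receptors and laminins set the neuroendocrine-like line apart. Lama3, Lamb3, Lama5, the laminin receptor subunit Itgb4 and Itgb6 were lower in BURP-19NE, and Lamb1, Lamc1, Itgb5 and Itga7 were higher. Of 35 genes that could be tested, 13 passed the threshold (edgeR quasi-likelihood test with Benjamini-Hochberg adjustment, with an adjusted p under 0.05 and a log2 fold change beyond 1 either way), 4 higher and 9 lower. Over all 20995 genes tested 24.3% passed, 9.33% higher and 15.0% lower. The median log2 fold change was -1 over the 35 genes and -0.14 over all genes. In 8 of the 35 the tumors of both groups did not overlap and the threshold was passed, against 14.0% of all genes.

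Lama3 (ENSMUSG00000024421, chromosome 18, 12333819 to 12583013) measured 3.83, 10.4 and 11.0 CPM in the BURP-19NE tumors C80-M1, C80-M3 and C80-M30, and 101, 300 and 634 CPM at the lowest, median and highest of the Ba/Sq tumors. Lamb3 (ENSMUSG00000026639, chromosome 1, 193207699 to 193343878) measured 3.75, 4.64 and 2.31 CPM in the same BURP-19NE tumors, against 90.2, 193 and 720 CPM in the Ba/Sq tumors. Both chains were lower in every BURP-19NE tumor than in any Ba/Sq tumor. The log2 fold changes were -5.32 ± 0.58 for Lama3 (SE, edgeR adjusted p = 4.7e-07) and -6.03 ± 0.68 for Lamb3 (8.87e-07). Lamb3 shares 42442 bases of its locus with Hsd11b1 on the opposite strand and also contains G0s2, and whether the counting used strand is not given in the sources used here, so its level is uncertain to that extent. The same holds for Itgae, Itga4, Itgad and Itgb2l, which overlap protein-coding genes on the opposite strand. Itga1, Itgam and Itga10 share 66649, 55809 and 7518 bases with protein-coding gene models on the same strand. Counting by strand cannot separate these, so their levels are uncertain either way. Epithelial markers were lower as well, 6 of the 8 tested of 9 in BURP-19NE and 5 of 8 in BURP-16SR. Krt18 was not among them, at 139 to 211 CPM in BURP-19NE and 129 to 320 CPM in BURP-16SR. Its Ba/Sq range was 3.03 to 510 CPM. Krt8 measured at most 0.272 CPM in BURP-19NE but 76 to 164 CPM in BURP-16SR, against 0 to 160 CPM in the Ba/Sq tumors. The part of these markers in the results on Lama3 and Lamb3 was not tested.

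Among the laminin receptors, Itgb4 (ENSMUSG00000020758, chromosome 11, 115974709 to 116008412) measured 6.23, 34.5 and 17.5 CPM in BURP-19NE and 483, 751 and 2020 CPM at the lowest, median and highest in the Ba/Sq tumors, a log2 fold change of -5.52 ± 0.61 (edgeR adjusted p = 6.03e-07), or -6.25 without C80-M3. Its partner Itga6 (ENSMUSG00000027111, chromosome 2, 71745616 to 71858416) measured 446, 451 and 529 CPM, within the Ba/Sq range of 408 to 2540 CPM with a median of 683. Itga6 did not pass (-0.83, edgeR adjusted p = 0.162). The ratio of Itga6 to Itgb4 per length was accordingly 10.2 to 55.6 in the BURP-19NE tumors and 0.438 to 1.25 in the Ba/Sq tumors. Alpha6 also pairs with beta1, and Itgb1 (ENSMUSG00000025809, chromosome 8, 128685654 to 128733200) measured 575, 570 and 478 CPM against 312, 473 and 829 CPM, groups that overlap (0.14, adjusted p = 0.676). Itga3, the alpha subunit of another epithelial laminin receptor (ENSMUSG00000001507, chromosome 11, 95044474 to 95076801), measured 98.1, 103 and 151 CPM, against 146, 264 and 783 CPM. It passed (-1.43 ± 0.51, edgeR adjusted p = 0.034) with overlapping groups, and missed the threshold when any 1 BURP-19NE tumor was left out (adjusted p from 0.057 to 0.124).

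**Figure D2:**
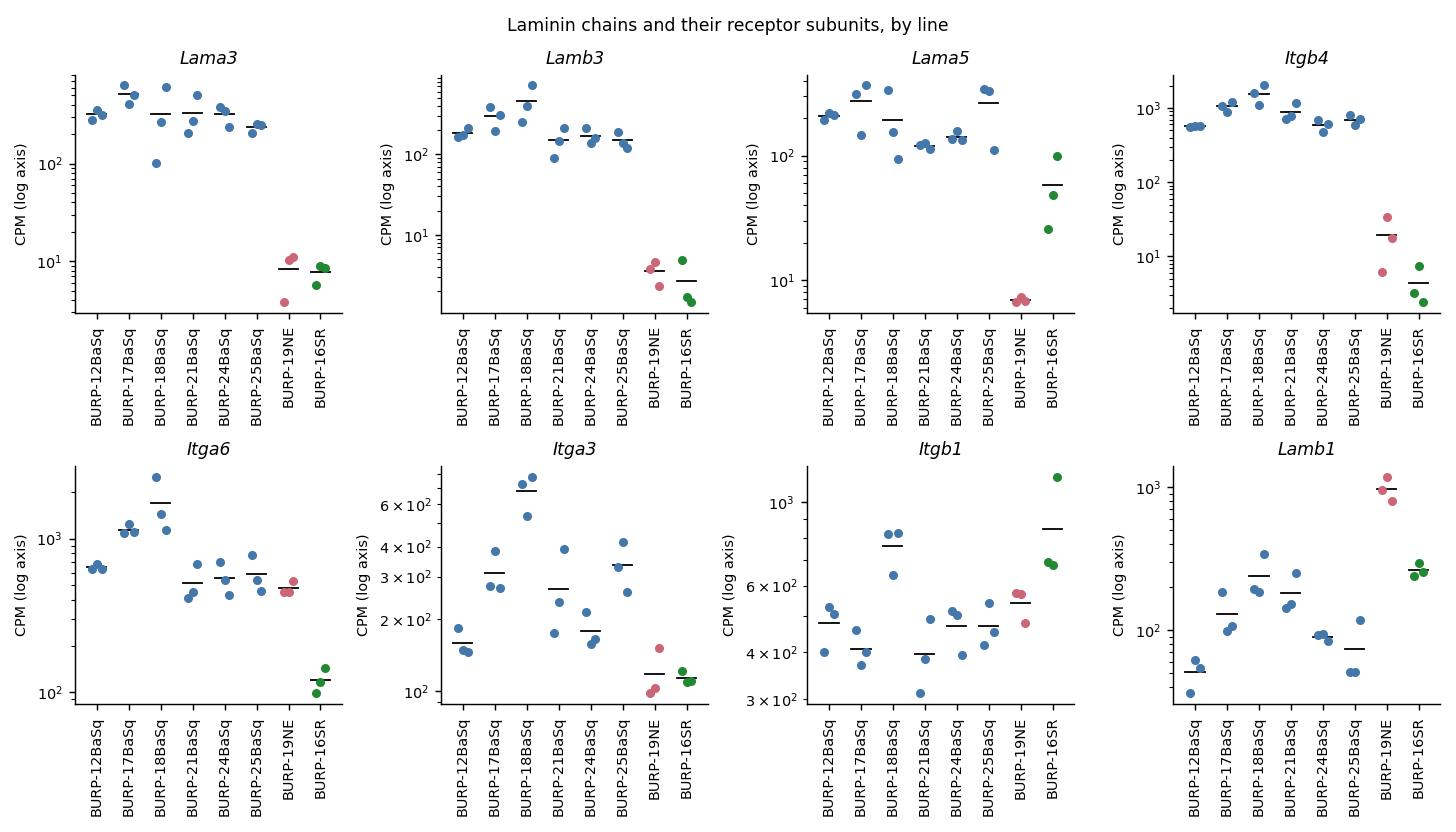
Levels (CPM, log axes) of laminin chains and their receptor subunits in each tumor, by line, with points for tumors, bars for line means and color for the subtype. Lama3, Lamb3 and Itgb4 lie below all Ba/Sq tumors in both other lines, Itga6 does so only in BURP-16SR, and Lamb1 is highest in BURP-19NE.

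Lamb1 (ENSMUSG00000002900, chromosome 12, 31265234 to 31329644) measured 953, 1186 and 796 CPM in BURP-19NE, against 36.4, 103 and 339 CPM in the Ba/Sq tumors, with no overlap. It was the laminin with the largest rise, 2.94 ± 0.41 (edgeR adjusted p = 1.17e-05). Lamc1, its usual gamma partner, rose by 1.24 ± 0.26 (0.00108) with overlapping groups, at means of 358 ± 72 and 153 ± 56.4 CPM. Lama5, the alpha chain of laminin-511 in mature epithelia, measured 6.69 to 7.27 CPM against 94.2 to 367 CPM, a fall to below every Ba/Sq tumor (-4.83 ± 0.53, adjusted p = 6.1e-07). Lama1, Lama2, Lama4 and Lamb2 did not pass, and Lamc3 was too low to be tested.

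Of 8 RGD-binding subunits 2 passed, 1 in each direction, near the share of 24.3% over all genes. Itgb6, an epithelial subunit that with alphav activates latent TGF-beta (ENSMUSG00000026971, chromosome 2, 60598292 to 60722643), was at 0.463, 0.105 and 0.136 CPM in BURP-19NE, near the floor, and at 0.824, 20.5 and 74.2 CPM at the lowest, median and highest in the Ba/Sq tumors. The groups did not overlap, and the fitted log2 fold change was -6.98 ± 1.33 (edgeR adjusted p = 0.000399), -7.97 without C80-M1. The BURP-19NE tumors rested on at most 11 counts each, so the fold is imprecise. The Ba/Sq tumor at 0.824 CPM, C148-M3 of BURP-18BaSq, was near its own floor of 0.412 CPM, so the lack of overlap rests on few counts. Itgb5, a vitronectin receptor subunit that also pairs with alphav (ENSMUSG00000022817, chromosome 16, 33829665 to 33949338), measured 97.6, 88.9 and 88.7 CPM against 20.8, 43.2 and 64.5 CPM. It was higher in each BURP-19NE tumor than in any Ba/Sq tumor (1.15 ± 0.27, adjusted p = 0.0022). Itgav and Itga5 were higher at 0.87 and 0.98 on the log2 scale (adjusted p = 0.00124 and 0.0178), under the fold required, and none of the 4 collagen-binding alpha subunits passed.

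Itga7, an alpha subunit of skeletal muscle laminin receptors, measured 18.7, 15.8 and 5.86 CPM in BURP-19NE and 0 to 9.08 CPM in the Ba/Sq tumors (1.71 ± 0.58, edgeR adjusted p = 0.0261), and no longer passed without C80-M1 (1.38, 0.169) or C80-M3 (1.57, 0.117). Skeletal muscle markers summed to 528 CPM in C80-M1 and to 2.16 and 5.26 CPM in C80-M3 and C80-M30, and 4 of the 5 tested markers of 6 were higher in BURP-19NE. Their part in the Itga7 result was not tested. Of the leukocyte integrins, Itgax (-1.99, adjusted p = 0.0291) and Itgae (-1.36, 0.049) were lower, and both lost the call without any 1 BURP-19NE tumor. Neutrophil markers were lower in 4 of 5 cases and platelet markers in 2 of the 3 tested, no Schwann cell marker passed in BURP-19NE or BURP-16SR, and the part of these cells was not tested. None of 9 leukocyte markers passed, at sums of 167 to 238 CPM in BURP-19NE and 23.2 to 689 CPM in the Ba/Sq tumors.

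BURP-16SR was compared with the same 18 Ba/Sq tumors, which both comparisons share, to ask the same of the stroma-rich line. Lama3, Lamb3, Lama5, Itgb4, Itga6, Itga3 and Itgb6 were lower in BURP-16SR, and Itgb7, Lamc3, Lama1, Itga5, Itgb3 and Itga7 were higher. Of 36 genes tested 14 passed, 6 higher and 8 lower, against 19.2% of all 21028 genes tested, 10.5% higher and 8.62% lower. The median log2 fold change of the 36 was 0.89, and that of all genes -0.03. In 11 of the 36 the call held with no overlap between the tumors, against 9.47% of all genes.

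Itgb4 was lowest here, at 3.22, 7.43 and 2.45 CPM in C73-M10, C74-MNT and P5, below all Ba/Sq tumors (-7.60 ± 0.64, edgeR adjusted p = 1.15e-08), or -8.23 without C74-MNT. Itga6 measured 98.1, 116 and 143 CPM in these tumors, also below all Ba/Sq tumors (-2.78 ± 0.54, adjusted p = 0.000592), so that both subunits of the hemidesmosome receptor were lower. Lama3 measured 5.76, 8.98 and 8.46 CPM (-5.39 ± 0.54, adjusted p = 1.9e-07). Lamb3 measured 4.92, 1.70 and 1.47 CPM (-6.37 ± 0.74, adjusted p = 1.73e-06), or -7.15 without C73-M10, and neither chain overlapped the Ba/Sq tumors.

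Itga3 measured 121, 110 and 111 CPM in BURP-16SR, below all Ba/Sq tumors, and passed narrowly (-1.43 ± 0.5, edgeR adjusted p = 0.041), losing the call without any 1 of the 3 tumors, as did Itgb6 (-2.90, 0.035) and Itga7 (1.82, 0.0213). Skeletal muscle markers summed to 8.48, 120.7 and 7.62 CPM in C73-M10, C74-MNT and P5, and to at most 32.4 CPM in the Ba/Sq tumors. Of the 5 tested 1 was higher, and their part in the Itga7 result was not tested. Itgb1 measured 694, 680 and 1166 CPM, with C73-M10 and C74-MNT inside the Ba/Sq range and P5 above it (0.83, adjusted p = 0.0111, under the fold required). Lama5 measured 25.6, 47.9 and 99.9 CPM, and its call (-1.73, adjusted p = 0.01) was lost without C73-M10 (-1.39, 0.0827) or C74-MNT (-1.63, 0.0546), while without P5 the change was -2.45. Lamb1, at 241, 297 and 254 CPM, did not pass here (1.11, adjusted p = 0.0764). Lama1, an alpha chain of embryonic basement membranes, measured 4.32, 25.5 and 0.21 CPM, a spread so wide that the change of 2.86 (adjusted p = 0.0133) fell to 0.72 (0.691) without C74-MNT.

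Itgb7 showed the largest rise. This subunit of the gut-homing receptor alpha4beta7 and of alphaEbeta7 (ENSMUSG00000001281, chromosome 15, 102215995 to 102231944) measured 105, 76.2 and 83.5 CPM in BURP-16SR, against 1.15, 2.73 and 12.51 CPM at the lowest, median and highest in the Ba/Sq tumors. Each BURP-16SR tumor lay above all others (4.61 ± 0.41, edgeR adjusted p = 2.72e-08). Its alpha partners were uneven, with Itga4 at 68.3, 48.1 and 2.45 CPM and Itgae at 3.56, 5.26 and 0.769 CPM in C73-M10, C74-MNT and P5, and neither passed. Ptprc, the pan-leukocyte marker CD45, measured 151.9, 106.6 and 10 CPM in the 3 tumors, and the 9 leukocyte markers summed to 748, 548 and 147 CPM. Of the 9, 1 was called higher, Cd79a, which measured 70.6, 2.55 and 0.63 CPM in these tumors. It reached 2.03 CPM in the Ba/Sq tumors, so only C73-M10 stood far above them. The leukocyte sums of the Ba/Sq tumors ran from 23.2 to 689 CPM, and the part of leukocytes in the Itgb7 result was not tested. The ratio of Itgb7 to Itgb2, the common beta subunit of leukocytes, was 1.8 to 5.39 per length in BURP-16SR and 0.112 to 1.12 in the Ba/Sq tumors.

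**Figure D3:**
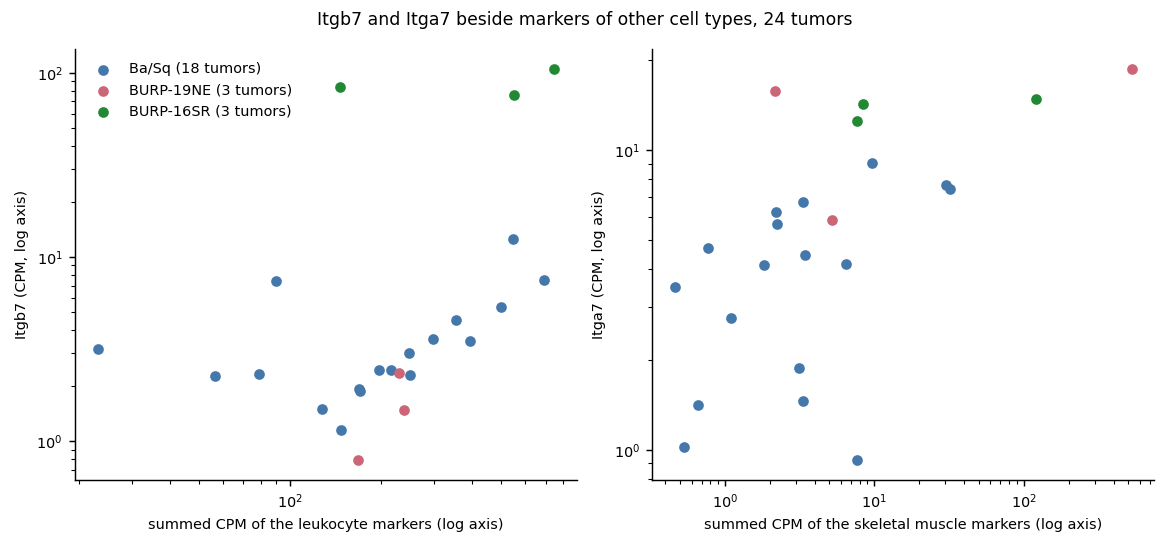
Itgb7 against the sum of 9 leukocyte markers, and Itga7 against the sum of 6 skeletal muscle markers, in 24 tumors (CPM, log axes), with color for the subtype and without 1 Ba/Sq tumor at 0 for Itga7, which a log axis cannot show. The 3 BURP-16SR points lie at 76.2 to 105 CPM of Itgb7 over leukocyte sums of 147 to 748 CPM, and the BURP-19NE tumor with a muscle sum of 528 CPM is C80-M1.

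Itga5 (ENSMUSG00000000555, chromosome 15, 103344286 to 103366763) measured 180, 169 and 164.7 CPM in BURP-16SR, against 18.4, 32.4 and 79.8 CPM in the Ba/Sq tumors, with no overlap (2.33 ± 0.28, edgeR adjusted p = 2.12e-06). Itgb3, the beta subunit of the platelet and of the alphavbeta3 vitronectin receptor (ENSMUSG00000020689, chromosome 11, 104608000 to 104670476), measured 46.5, 51.5 and 27.8 CPM against 2.69, 8.31 and 23.2 CPM, also with no overlap (2.14 ± 0.44, adjusted p = 0.00114). Lamc3 (ENSMUSG00000026840, chromosome 2, 31887291 to 31946539) passed from very low levels, at 1.44, 0.619 and 0.56 CPM against 0, 0.0522 and 0.348 CPM (3.16 ± 0.74, adjusted p = 0.00331), with at most 17 and 9 counts in a tumor, and lost the call without C73-M10 (2.58, 0.0656). Fibroblast markers summed to 7553, 20130 and 598 CPM in the 3 tumors and to 212 to 9850 CPM in the Ba/Sq tumors, with 5 of 8 called higher, and endothelial markers to 237 to 349 CPM against 28.8 to 403 CPM, with 3 of 6 higher. Of 3 platelet markers tested 1 was higher and 1 lower, and no neutrophil marker passed. Their part in these results was not tested. Without C73-M10 only 9 of the integrin and laminin genes passed for BURP-16SR, against 12.2% of all genes, and without C74-MNT 10, against 14.8%.

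**Figure D4:**
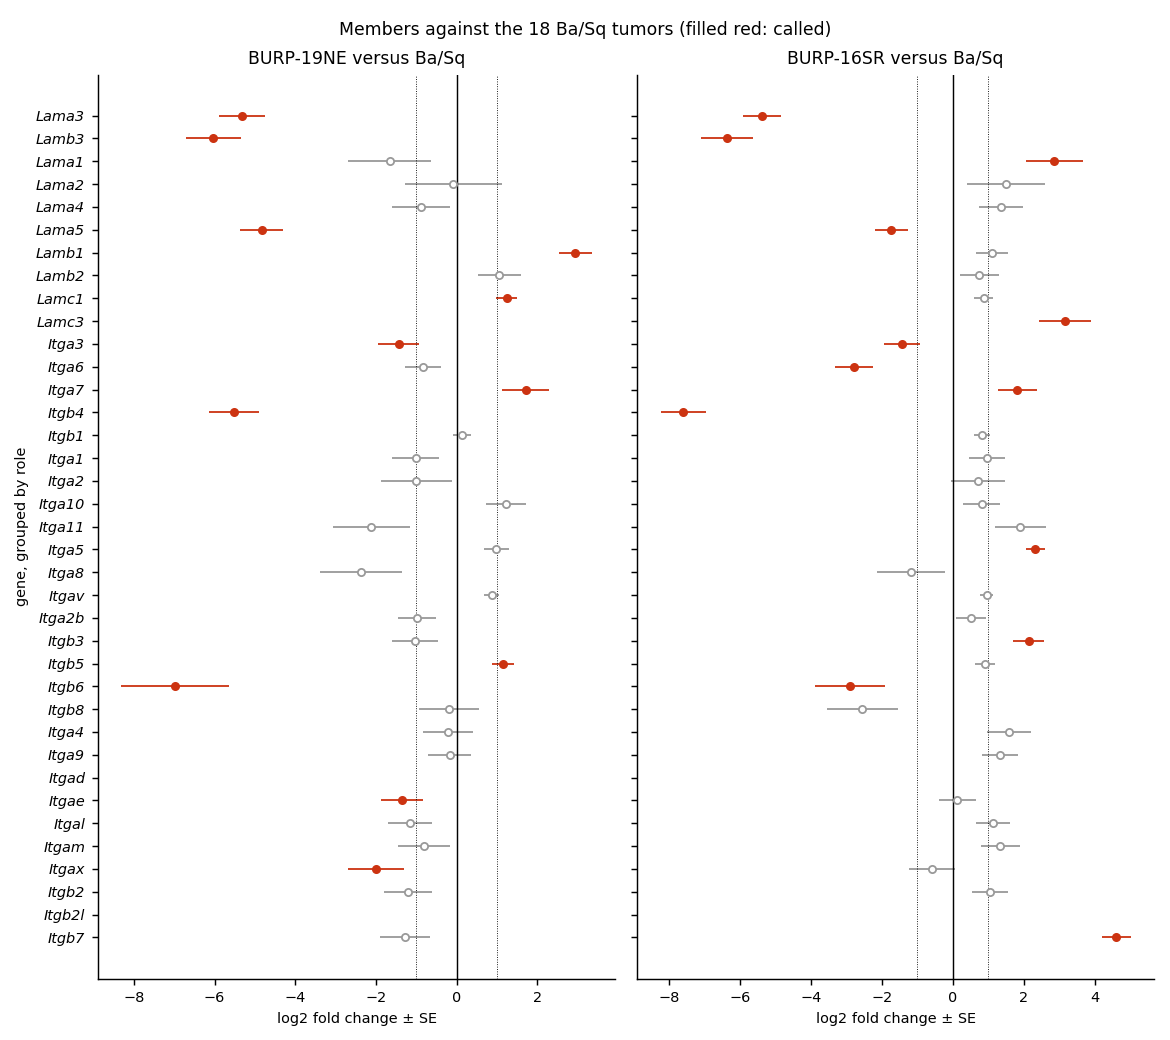
Log2 fold changes ± SE of tested genes in BURP-19NE and in BURP-16SR against the 18 Ba/Sq tumors, which both share, with filled red points for calls and dotted lines at -1 and 1. Lama3, Lamb3 and Itgb4 lie below -5 in both panels, Itga6 passes only for BURP-16SR, and Lamb1 passes only for BURP-19NE.

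The 2 lines were then compared directly, 3 tumors against 3, from the same libraries as above. Of 34 genes tested 16 passed, 14 higher in BURP-16SR and 2 higher in BURP-19NE, all without overlap. Over all 17556 genes 23.6% passed, 14.8% higher and 8.86% lower in BURP-16SR, and 23.1% passed without overlap. The median log2 difference was 1.54 over the 34 genes and 0.06 over all genes. Itgb7 was higher in BURP-16SR by 5.92 (edgeR adjusted p = 0.000659), Itgb6 by 4.13 (0.00308), Itgb3 by 3.22 (0.00102), and Lama5 by 3.13 (0.00427). Itga6 (-1.91, adjusted p = 0.00102) and Lamb1 (-1.80, 0.00189) were lower in BURP-16SR, so the difference in Itga6 between the lines passed its own test. That in Itgb4 did not (-2.05, 0.0643), but it passed in 5 of 12 alternative settings. Among these were those without C80-M1 or C74-MNT and DESeq2 (0.00696).

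Of the leukocyte integrins, Itgal, Itgam, Itgb2 and Itgb7 were higher in BURP-16SR, and of the collagen-binding subunits Itga1, Itga2 and Itga11 were. Itgal, the alpha subunit of LFA-1, measured 27.6, 26.7 and 7.76 CPM in BURP-16SR and 4.21, 3.43 and 5.72 CPM in BURP-19NE. Of the leukocyte markers none of 8 tested passed, while 3 of 3 neutrophil, 2 of 2 platelet, 5 of 6 endothelial and 3 of 8 fibroblast markers tested were higher in BURP-16SR, and their part was not tested. The call for Itga2 was lost without any 1 of the 6 tumors, those for Itga1, Itga11 and Lama4 without any 1 BURP-19NE tumor, that for Itgb2 without C80-M1 or C80-M3, that for Itga2b without C80-M1 or C80-M30 and that for Itgal without C73-M10, C80-M1 or C80-M3. Without C74-MNT the differences of Itga11, Lama4 and Itga1 moved from 4.06, 2.29 and 2.02 to 2.86, 1.63 and 1.37. Without P5 those of Lama5 and Itga2 were 2.49 and 1.15, and without C80-M1 or C80-M3 only 10 of the genes passed, against 15.5% and 15.7% of all genes.

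The 6 Ba/Sq lines were compared with each other to ask how even the receptors are within 1 subtype. Of 35 genes tested 13 differed among the lines (edgeR quasi-likelihood F-test, adjusted p under 0.05 and line means over 1 apart on the log2 CPM scale), against 39.2% of all 20523 genes. The median spread between the highest and lowest line mean was 1.8 for the 35 genes and 1.28 for all genes. Itgb1 had a spread of 0.98 (adjusted p = 0.00646), under the limit. Lama3 was not called, while Lamb3 (1.56), Itga6 (1.70), Itgb4 (1.43) and Itga3 (2.10) were, each with its highest line mean in BURP-18BaSq. Itga6 averaged 1710 ± 736 CPM (SD, n = 3) in BURP-18BaSq and between 513 and 1140 CPM in the other 5 lines, and Itga3 averaged 682 ± 130 CPM there and between 159 and 335 CPM elsewhere.

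The 5 largest differences among the called genes were those of Itgb6, Itga2, Itgb8, Itga8 and Lamb2. Itgb6 measured 0.824, 4.204 and 4.86 CPM in BURP-18BaSq, 9.63, 15.1 and 14.1 CPM in BURP-12BaSq, 18.4, 20.4 and 18.7 CPM in the BURP-21BaSq tumors, 20.6, 55.5 and 26.0 CPM in BURP-25BaSq, 46.4, 41.7 and 69.6 CPM in BURP-17BaSq and 74.2, 69.6 and 61.1 CPM in BURP-24BaSq. The tumors of BURP-18BaSq, BURP-12BaSq and BURP-21BaSq followed each other without overlap, and the 2 highest lines overlapped each other. Its spread was 4.64 (adjusted p = 0.000156), or 3.88 without C148-M3 of BURP-18BaSq. Itga2, the alpha subunit of the epithelial collagen receptor (ENSMUSG00000015533, chromosome 13, 114833081 to 114932100), ran the other way in that line, at 403, 261 and 262 CPM in BURP-18BaSq, 150, 134 and 71.3 CPM in BURP-24BaSq, 81.05, 73.7 and 38.8 CPM in BURP-17BaSq, 78.4, 59.5 and 28.9 CPM in BURP-25BaSq, 16.2, 17.9 and 89.5 CPM in the BURP-21BaSq tumors and 35.2, 23.1 and 12.3 CPM in BURP-12BaSq. Only BURP-18BaSq lay above all tumors of the other lines, which overlapped with their neighbours in this order (spread 3.81, adjusted p = 0.00173).

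Itgb8, another TGF-beta activating partner of alphav (ENSMUSG00000025321, chromosome 12, 119158022 to 119238802), measured 1.92, 5.23 and 1.34 CPM in BURP-18BaSq, 13.4, 1.79 and 6.58 CPM in BURP-25BaSq, 9.59, 8.07 and 6.66 CPM in BURP-12BaSq, 22.6, 15.9 and 12.3 CPM for BURP-21BaSq, 17.4, 22.1 and 22 CPM in BURP-24BaSq and 46.7, 9.74 and 44.5 CPM in BURP-17BaSq. The low BURP-17BaSq tumor was C165-M30, without which the spread of 3.45 (adjusted p = 0.00469) was 4.2. BURP-18BaSq lay below all tumors of the other lines except those of BURP-25BaSq, which it overlapped. Itga8, a nephronectin receptor subunit (ENSMUSG00000026768, chromosome 2, 12106632 to 12301922), stayed low, from 0.137 to 0.588 CPM in BURP-18BaSq, 0.296 to 0.667 CPM in BURP-12BaSq, 0.445 to 1.01 CPM in BURP-25BaSq, 0.662 to 2.38 CPM in BURP-24BaSq, 1.12 to 2.66 CPM for BURP-21BaSq and 1.76 to 6.85 CPM in BURP-17BaSq. The BURP-18BaSq levels lie near the floor of 0.16 to 0.412 CPM in those libraries, and lines next to each other in that order overlapped (spread 3.36, adjusted p = 0.00236).

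Lamb2, a beta chain of vascular and neuromuscular basement membranes (ENSMUSG00000052911, chromosome 9, 108479736 to 108490530), measured 10.7, 9.73 and 8.43 CPM in BURP-12BaSq, 20.7, 23.3 and 17.0 CPM for BURP-21BaSq, 40.9, 35.4 and 38.9 CPM in BURP-24BaSq, 104, 18.3 and 52.5 CPM in BURP-17BaSq, 96.4, 49.5 and 53.0 CPM in BURP-18BaSq and 51.1, 50.1 and 14.5 CPM in BURP-25BaSq. The low tumor of BURP-25BaSq was C102-M1, without which that line's mean was 50.6 ± 0.689 in place of 38.6 ± 20.9 CPM. BURP-12BaSq lay below every other Ba/Sq tumor (spread 2.72, adjusted p = 0.00583). The calls among the lines rose from 13 to 16 without C102-M1 and to 18 when it was counted with BURP-21BaSq, as the share over all genes rose to 45.6% and 47.6%. Those of Itgb7 and Itgae were lost when 1 of several single tumors was left out, Itgb7 without C47-M30 or C47-M3 of BURP-12BaSq or C148-M3 or P4 of BURP-18BaSq, and Itgae without C148-M3 or C149-M3 of BURP-18BaSq or C102-M30 or C102-M1 of BURP-25BaSq. Beside these differences, none of 9 leukocyte, 6 endothelial and 5 neutrophil markers differed among the lines, while 5 of 8 epithelial, 2 of 8 fibroblast, 2 of 3 neuroendocrine, 1 of 3 platelet, 1 of 4 skeletal muscle and 1 of 3 Schwann cell markers tested did, and their part was not tested.

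**Figure D5:**
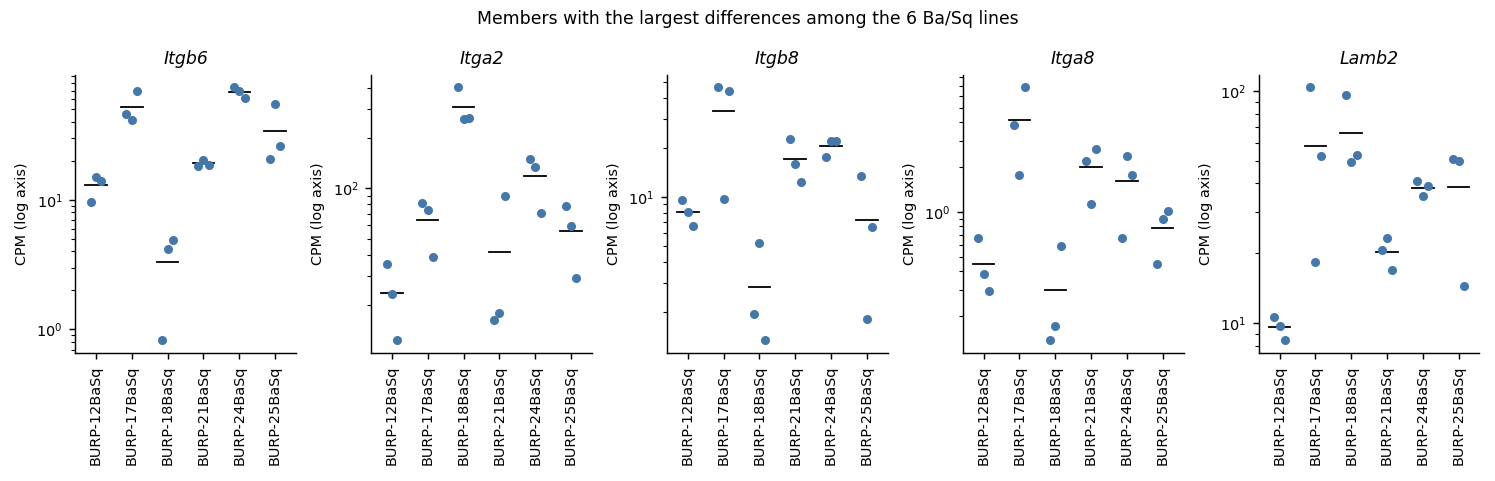
Levels (CPM, log axes) of the 5 called genes with the largest differences between Ba/Sq lines, with points for the 3 tumors of each line and bars for line means. BURP-18BaSq is lowest for Itgb6 and highest for Itga2, and 1 tumor of BURP-25BaSq, C102-M1, lies below its line for Lamb2.

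The 9 tumors of male and the 9 of female Ba/Sq lines were compared because the study offers the lines as models for both sexes. Of 35 genes tested 3 passed, against 2.31% of all 17922 genes. Lamb3 (313 ± 175 and 157 ± 41.8 CPM in male and female lines, log2 difference 1, edgeR adjusted p = 0.0328) and Itga6 (1170 ± 589 and 553 ± 135 CPM, 1.09, 0.0183) were higher in the male lines, and Itgae (1.99 ± 0.719 and 4.3 ± 1.71 CPM, -1.07, 0.0301) was lower. The tumors of the sexes overlapped for all 3 genes. Lamb3 lay at the fold limit and lost its call in 14 of 26 alternative settings. Without C148-M3 or C149-M3 of BURP-18BaSq, or C102-M30 or C102-M1 of BURP-25BaSq, only 1 of the 35 passed, against 1.62% to 2.45% of all genes. All 3 calls were lost when BURP-18BaSq was left out, at 0.59 (adjusted p = 0.161), 0.66 (0.0841) and -0.99 (0.102). In that setting 1.54% of all 18684 genes passed. With counts summed per line none of the 35 passed by edgeR, 4 having an unadjusted p under 0.05. Of all 21658 genes 0 passed there, so that result says nothing about these genes in particular. DESeq2 over tumors called 3, against 4.29% of all genes.

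The partners of these receptors were read from 4 lists. Beside the counts that follow, 24.3% of all genes passed for BURP-19NE, 19.2% for BURP-16SR and 23.6% between the 2 lines. Of 6 hemidesmosome partners, Krt5, Krt14 and Col17a1 were lower in BURP-19NE (-17.52, -13.09 and -9.61) and in BURP-16SR (-15.11, -15.36 and -10.12), folds that depend on the prior count since both lines were near 0, while Plec, Cd151 and Dst did not pass in either line. Of 23 integrin adapters, 6 were called in BURP-19NE, near the share of all genes, 4 higher and 2 lower. Among them were Parvb, which joins integrin-linked kinase to actin (3.60), the kindlin Fermt2 (2.34), the epithelial kindlin Fermt1 (-5.62) and the tensin Tns4 (-9.67). In BURP-16SR 5 were higher and 2 lower, with Parvb at 4.45, Tln2 at 2.35, Fermt1 at -5.57 and Tns4 at -5.79. Kindlins are the cofactors that activate integrins, and the epithelial form was the lower one in both lines.

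Of 14 basement membrane partners and laminin receptors, Bcam, a receptor for the alpha5 laminin chain, was the only one called in BURP-19NE (-4.91), against 24.3% of all genes. It was lower in BURP-16SR too (-4.85), with Col4a5 (-4.31) and Agrn (-2.09), while 6 were higher there, led by Ntn4 (2.35), Col7a1 (2.04) and Nid2 (1.73). Among 12 tested of 13 other integrin ligands, Npnt (5.30), Thbs1 (3.45) and Fn1, fibronectin (2.48) were higher in BURP-19NE, and Cdh1, the E-cadherin that alphaEbeta7 binds (-8.46), Tnc (-3.26) and Icam1 (-2.87) were lower. In BURP-16SR 5 were higher, led by Spp1, osteopontin (3.25), Npnt (3.11) and Fn1 (2.69), and Cdh1 was lower (-6.44). Between the 2 lines 8 of 11 tested ligands differed, 7 of them higher in BURP-16SR, as did 7 of 12 basement membrane partners, 5 of them higher. Of all genes 23.6% differed between these lines.

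Counts summed per line leave 1 value for each line, so BURP-19NE and BURP-16SR are then 1 sample each. Log2 fold changes are given over the settings that kept every tumor, the summed counts among them. For BURP-19NE they were -5.43 to -5.3 (Lama3), -6.14 to -5.91 (Lamb3) and -5.62 to -5.43 (Itgb4). For BURP-16SR they were -5.57 to -5.38, -6.66 to -6.33 and -7.78 to -7.57 for the same genes. The edgeR test on summed counts called fewer genes over all genes too, so its calls cannot single out these genes. For BURP-19NE, Itgb6 (adjusted p = 0.0952), Lamc1 (0.124), Itgb5 (0.133), Itga7 (0.134), Itgax (0.135), Itgae (0.301) and Itga3 (0.343) did not pass by that test. For BURP-16SR, Itga6 (adjusted p = 0.0891), Itgb3 (0.132), Lama5 (0.158), Lama1 (0.167), Itga7 (0.174), Lamc3 (0.214), Itgb6 (0.356) and Itga3 (0.358) did not pass by that test.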

How the data were processed

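Ribosomal RNA was depleted and paired-end reads were aligned by the authors with STAR 2.6.0a to GRCm38 with GENCODE M16, after CASAVA 1.8.2. Deposited were the estimated counts per gene from RSEM 1.3.1, which the authors did not normalize. Totals ran from 9295708 to 25370320 per tumor (median 17693147), and more deeply sequenced tumors give low genes less counting error. Of the values 12.5% were not whole, and all were rounded. Line came from the labels, sex and subtype from the study.

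Comparisons used edgeR 4.0.16 in R 4.3.3 (TMM, filterByExpr, quasi-likelihood F-test without robust estimation), fitted to all genes, with Benjamini-Hochberg adjustment over all genes tested. Calls required an adjusted p under 0.05 and a log2 fold change beyond 1 either way. Among the Ba/Sq lines, means were log2 CPM with a prior count of 2. Levels are CPM over the 24 tumors, divided by exon length of GENCODE M21 where genes are compared. MDS distances were the root mean square of the 500 largest differences in log2 CPM between 2 tumors, and sequences were from RefSeq.

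Some genes that entered the counts are left out of the text and figures. The genes and lists were chosen with earlier results of these data known. Values of single tumors are given for Lama3, Lamb3, Itga3, Itga6, Itgb1 and Itgb4, for the 4 called genes per direction that changed most without overlap (BURP-19NE and BURP-16SR), and for the 5 called genes that differed most among Ba/Sq lines. Other tumors' values given beside a result were chosen after they were seen. Of other lists, at most 3 called genes per direction are named. Alternatives were DESeq2 1.42.0 and its size factors, 1 fit of all 24 tumors, no filter, a minimum of 10 counts in each tumor, counts summed per line and each tumor left out. For the Ba/Sq lines, C102-M1 was also counted with BURP-21BaSq. Leaving out BURP-18BaSq was chosen after seeing the data.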

Additional observations from a re-analysis of the deposited data

Results flagged for a closer look

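Lama3 in the 9 tumors of the male Ba/Sq lines had 1 tumor far below the others. Tumor C148-M3 of BURP-18BaSq measured 101 CPM, and its gap to the nearest tumor took 0.527 of the range on the log2 scale (Dixon's test). Chance flags about 1 in 20 such groups, and 14 groups were tested, so 1 flag among them is not unusual. The test also takes the 9 tumors as 1 group, although Lama3 averaged 319, 515 and 325 CPM in BURP-12BaSq, BURP-17BaSq and BURP-18BaSq. That tumor was also the lowest for Itgb6 among all Ba/Sq tumors, at 0.824 CPM, and the highest for Itga6 and Itga2, at 2540 and 403 CPM.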

How the results depend on the processing

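Over 70 values of single genes, 1438 of 1556 settings kept the direction and the side of the threshold, 100 lost a call, 8 gained one and 10 changed sign. With 1 tumor left out, the genes called numbered 9 to 14 for BURP-19NE, 9 to 19 for BURP-16SR and 10 to 22 for BURP-16SR against BURP-19NE. The shares of all genes called moved too, from 16.2% to 25.4%, 12.2% to 20.9% and 15.5% to 29.7% in that order. Among the Ba/Sq lines the genes called numbered 12 to 18 (32.2% to 45.6% of all genes), and for the sexes 1 to 3 (1.59% to 3.06%). Counts summed per line, with fewer samples, gave 6, 5 and 0 for BURP-19NE, BURP-16SR and the sexes. All 24 tumors in 1 fit gave 22 for BURP-16SR, at least 10 counts in every tumor gave 8 among the lines, no filter gave 1 for the sexes, and leaving out BURP-18BaSq gave 0 (5 at an unadjusted p under 0.05); the causes were not tested. Sign changes were confined to uncalled differences: in BURP-16SR against BURP-19NE, Itga3 at -0.02 without a filter, -0.05 in the fit of all 24 tumors and -0.09 to 0.25 with a tumor left out, and Lama3 at -0.4 to 0.2; between the sexes without BURP-18BaSq, Itga3 and Itgb1 at -0.2 and -0.05. Over all genes, at least 10 counts in every tumor, which tests fewer genes, gave 2001, 1594, 4442 and 191 calls for BURP-19NE, BURP-16SR, the lines and the sexes in place of 5108, 4029, 8035 and 414. Counts summed per line gave 1087, 841 and 0 for BURP-19NE, BURP-16SR and the sexes (for the last, 1388 at an unadjusted p under 0.05), and for the sexes DESeq2 gave 768 and all 24 tumors 1473. BURP-16SR without C73-M10 gave 2670. No paired analysis was possible because the mouse and passage marks that recur between lines are not said to mark a shared animal or batch. Depth limits Lamc3, Itgad, Itgb2l and, in BURP-19NE and in C148-M3 of BURP-18BaSq, Itgb6, all near the floor.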
